A study of Mus musculus with 12 samples.

Results

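Urea cycle and amino acid breakdown genes were followed in the liver of mice without a working copper exporter. Of 37 genes chosen by name, which cover the urea cycle and the enzymes that take amino acids apart, 34 were measured among 18193 genes in all. A gene was measured where at least 1 probe set, a group of short probes on the array, was annotated to it and to no other gene. Where a gene had several, the brightest one, by mean over the 12 arrays, stood for it. Gls2, Sds and Sdsl had no such probe set and were not analysed here. The rule itself takes names and mean level, but the 37 names were chosen with earlier results of these data known.

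The platform was Affymetrix GeneChip mouse arrays, hybridised with total liver RNA of C57Bl/6 mice aged 3 months. There were 3 groups of 4 arrays: wild type with no agent, Atp7b-/- with no agent, and Atp7b-/- given supplemental zinc. Wild type mice with zinc were not analysed here, so zinc was compared within the mutant alone. The sources used here do not give the exact Atp7b lesion, the sex of the mice, or how much zinc was given and for how long. They also do not say that every array came from its own animal, so the p-values reflect array-to-array spread that may be partly technical.

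Amino acids are broken down mainly in hepatocytes. Transaminases move the amino group to glutamate or aspartate, the urea cycle turns the freed nitrogen into urea, and pathway-specific enzymes pass the carbon skeletons on to the citric acid cycle, to ketone bodies or to glucose. Many of these genes are raised by glucagon and glucocorticoids in fasting. ATP7B loads copper onto ceruloplasmin and exports it into bile, and its loss makes copper accumulate in the liver, as in Wilson disease. Zinc is used in that disease because it induces metallothionein in the gut, which holds copper back from absorption.

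All levels below are log2 values as deposited, and a difference of 1 between groups is a doubling. Levels of different genes are not comparable on this scale as amounts of RNA. By probe set signal alone, all 34 genes read above the median gene, at 6.58, and 29 of them were among the brightest 10% of genes. Differences were tested with limma in 1 fit of group means over all genes, and a gene was called higher or lower at a Benjamini-Hochberg adjusted p under 0.05. Errors after ± are standard errors (SE) of a difference.

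The targeted gene bore out the genotype labels. Wild type arrays had Atp7b at 8.51 to 8.69, those of untreated Atp7b-/- at 6.91 to 7.25 and those with zinc at 6.57 to 6.98. The 2 mutant groups overlapped, so Atp7b does not check the zinc label. The 4 measured hepatocyte markers had a mean of 14.5 to 14.6 in every array, and none of them was called in any of the 3 comparisons. Some arrays stood apart. The mean of the 8 measured pancreatic acinar markers was 9.66 and 7.10 in zinc-treated replicates 2 and 3, against 5.61 to 5.88 in every other array. Untreated Atp7b-/- replicate 1 correlated least with its group, with a median r of 0.991 over genes against 0.996 for the other 3. The 3′ minus 5′ signal of actin and Gapdh on the array's control probes, a sign of RNA quality, was 0.79 to 0.88 in untreated Atp7b-/-, above the 0.62 to 0.78 of wild type and the 0.54 to 0.74 of the zinc group. The part of that gap in the results below was not tested.

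In untreated Atp7b-/- liver, 13 of the 34 genes were higher than in wild type and none was lower (38.2% and 0.0%, where 14.3% of all genes were higher and 10.3% lower). Each of the 10 groups held at least 1 of them. The cysteine group has only 1 gene, and the urea cycle held 1 among its 6 genes. The smallest adjusted p belonged to Cth, Agxt2, Gpt, Kmo and Hgd. They were listed under cysteine, glyoxylate, alanine, tryptophan and tyrosine, which names the pathway and not the substrate. Cth releases cysteine. Of the 13 calls, 6 held in each of 24 alternatives. None of those 6 lay in the urea cycle, alanine and aspartate, branched-chain or histidine groups. With zinc, 6 genes were lower than in untreated mutants and none was higher (17.6%, where 4.84% of all genes were lower), and 3 of the 6 were transaminases of alanine and aspartate. Of these 3, Got1 and Gpt2 lost their calls in 7 and 5 of 12 fits without 1 array, and Gpt lost its call on its dimmer probe set. Only the calls of Kmo and Cth held in each of 24 alternatives. Against wild type, 3 genes were called in the zinc-treated livers, 8.82%, close to the 7.62% of all genes: Agxt2 and Bckdhb were higher and Gpt2 was lower, and the calls of Bckdhb and Gpt2 were lost when some arrays were left out.

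The counts stand against a broad background of change. In Atp7b-/- against wild type, 14.3% of all genes were called higher and 10.3% lower, 24.6% in all, beside 38.2% and 0.0% of the urea cycle and amino acid genes. Because all 34 are bright, the fit was also run on the 9096 genes above the median, of which 25.4% were higher and 13.0% lower; it called 14 of the 34 higher and none lower. The median difference over the 34 was 0.21, against -0.05 over all genes and 0.06 over the brighter ones. After quantile normalization it was 0.15, against -0.04 over all genes. Of the 34 differences, 30 lay above 0. Mutant and wild type arrays were fully separated for 11 higher genes and 1 lower one, Otc, where 14.3% and 12.1% of all genes (26.4% in all) were so separated. Wild type arrays had a mean level over the 34 of 11.57 to 11.69, untreated Atp7b-/- arrays of 11.78 to 11.97 and zinc arrays of 11.62 to 11.81. Leaving out untreated Atp7b-/- replicate 4 lowered the count from 13 to 8, and no other single array moved it by as much. In bulk liver, fewer cells of a type and less RNA per cell cannot be told apart. In the same comparison, 5 of 8 macrophage markers and 3 of 6 endothelial markers were lower. The macrophage list mean was 7.84 to 8.82 in wild type arrays, 7.43 to 8.50 in those of untreated Atp7b-/- and 7.66 to 7.96 with zinc. The endothelial list mean was 7.64 to 7.77, 7.23 to 7.39 and 7.51 to 7.69. Their part in the amino acid genes was not tested.

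**Figure D1:**
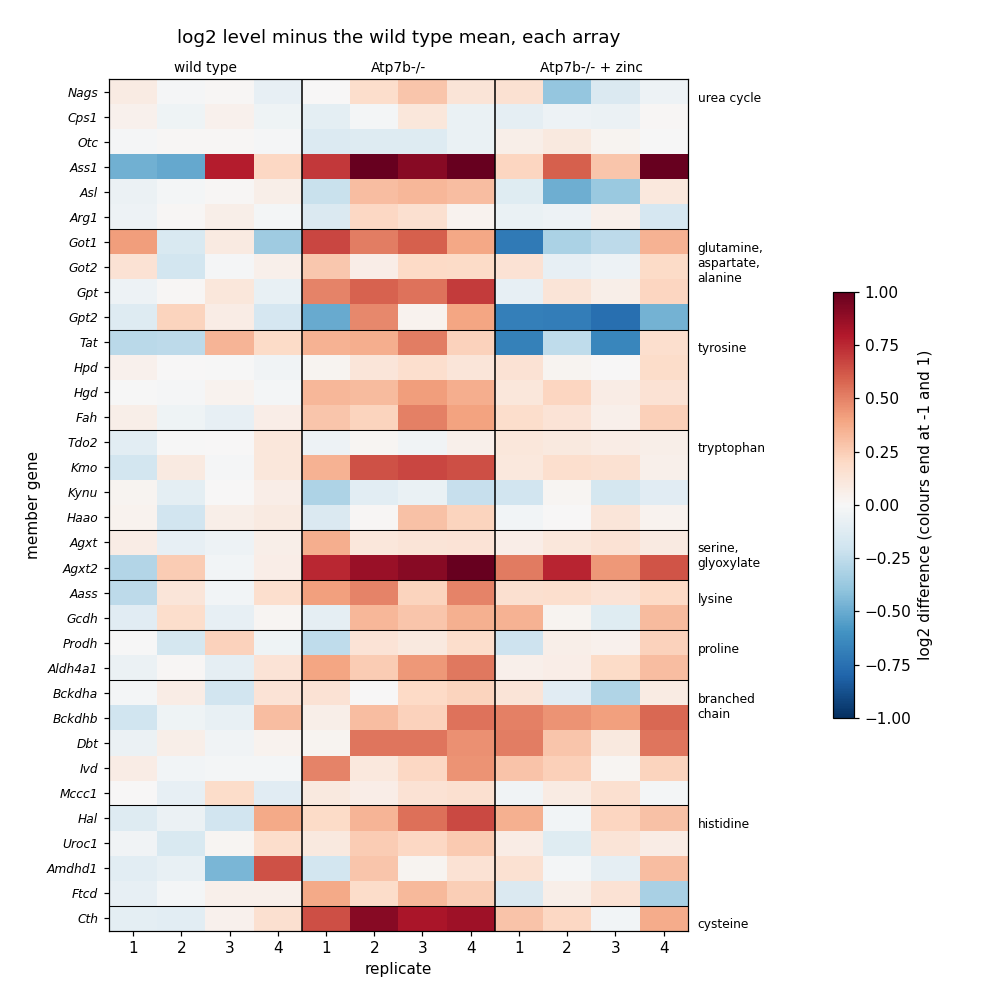
Log2 level of the 34 genes (rows, by amino acid) on the 12 arrays (columns, by group), each minus its wild type mean; colours end at -1 and 1. Untreated Atp7b-/- columns are mostly above wild type, with list means of 11.78 to 11.97 against 11.57 to 11.69, and the zinc columns lie nearer to wild type.

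**Figure D2:**
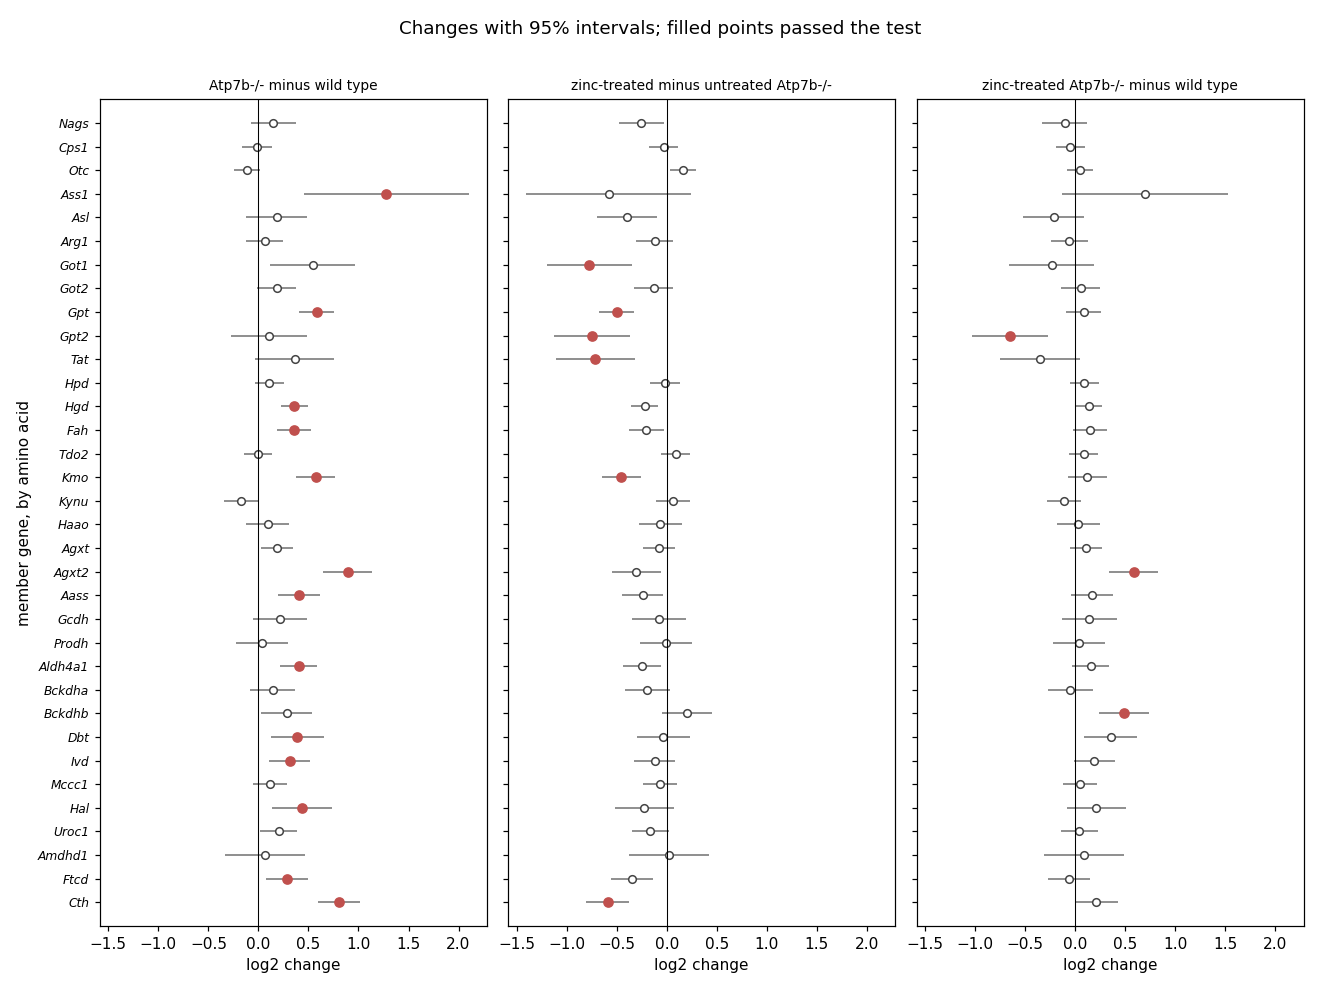
Log2 difference of each of the 34 genes in the 3 comparisons (panels), with 95% intervals; filled points were called at an adjusted p under 0.05. There are 13 filled points above 0 in Atp7b-/- against wild type, 6 below 0 with zinc against untreated, and 3 in zinc-treated Atp7b-/- against wild type.

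Of the 34 genes, 27 had a promoter in the RefSeq table used, among them 10 of the 13 called higher. Shown are those of the 3 called genes with the smallest adjusted p that had an entry (Agxt2, Kmo and Hgd). Those of the other called genes with a match to the C/EBP motif (Aass and Hal) are also shown. Aass and Hal were picked for holding that motif, so their matches cannot serve as a test. Cebpb was called higher and Hnf4a lower in Atp7b-/-, though the Hnf4a call was lost with some other choices of probe set. The part of either gene was not tested. Each promoter runs from 250 bases before to 50 after the start of the gene, 5′ to 3′ on the strand of the gene, in the mouse build GRCm38.p6. Capitals mark a motif match. Agxt2 lies at chr15:10358283-10358582 (plus strand), Kmo at chr1:175631943-175632242 (plus), Hgd at chr16:37579903-37580202 (plus), Aass at chr6:23132937-23133236 (minus) and Hal at chr10:93488518-93488817 (plus).
Agxt2: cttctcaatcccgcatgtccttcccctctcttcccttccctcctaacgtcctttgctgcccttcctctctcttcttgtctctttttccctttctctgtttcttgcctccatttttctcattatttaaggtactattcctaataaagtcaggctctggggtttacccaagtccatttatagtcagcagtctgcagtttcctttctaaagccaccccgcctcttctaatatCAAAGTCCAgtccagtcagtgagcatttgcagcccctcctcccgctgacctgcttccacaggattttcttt
Kmo: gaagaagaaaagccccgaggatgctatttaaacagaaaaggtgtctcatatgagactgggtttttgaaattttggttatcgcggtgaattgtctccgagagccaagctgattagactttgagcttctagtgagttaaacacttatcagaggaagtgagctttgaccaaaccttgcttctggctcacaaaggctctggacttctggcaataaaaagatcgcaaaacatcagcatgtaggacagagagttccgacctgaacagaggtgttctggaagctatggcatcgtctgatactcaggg
Hgd: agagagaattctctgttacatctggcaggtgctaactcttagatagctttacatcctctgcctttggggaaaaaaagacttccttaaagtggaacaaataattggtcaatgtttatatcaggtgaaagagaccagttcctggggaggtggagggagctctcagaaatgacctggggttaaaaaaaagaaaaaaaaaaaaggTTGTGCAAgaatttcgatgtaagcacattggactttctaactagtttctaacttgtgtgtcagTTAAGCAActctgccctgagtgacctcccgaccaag
Aass: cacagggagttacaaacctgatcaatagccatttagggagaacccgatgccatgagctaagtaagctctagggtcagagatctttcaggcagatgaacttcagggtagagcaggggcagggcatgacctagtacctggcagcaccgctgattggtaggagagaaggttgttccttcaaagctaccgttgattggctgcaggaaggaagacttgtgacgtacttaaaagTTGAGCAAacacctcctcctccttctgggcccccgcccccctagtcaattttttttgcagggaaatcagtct
Hal: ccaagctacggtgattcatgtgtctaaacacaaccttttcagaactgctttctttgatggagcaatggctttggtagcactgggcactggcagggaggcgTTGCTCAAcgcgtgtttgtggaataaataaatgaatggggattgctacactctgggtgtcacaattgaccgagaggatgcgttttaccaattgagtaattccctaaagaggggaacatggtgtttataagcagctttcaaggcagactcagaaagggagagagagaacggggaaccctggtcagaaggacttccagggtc

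Both strands were searched for 5 motifs, with no overlap among the matches shown. The C/EBP motif TTGCNNAA was found in 4 of the 27 promoters (Aass, Gcdh, Hal and Hgd) and in 10.8% of the 32851 promoters of the table. Hgd held it at -49 to -42 and at 14 to 21, Aass at -22 to -15 and Hal at -150 to -143, counted from 0 at the first base after the 250 upstream ones. The HNF4 motif CAAAGTCCA stood in the Agxt2 promoter at -21 to -13 and in 0.475% of all promoters. The metal response motif, TGCACNC or TGCGCNC, was found in 7 of the 27 and in 25.7% of all; Ass1 was the only one of the 7 among the genes called higher. Neither the cAMP motif TGACGTCA, in 1.79% of all promoters, nor the palindromic glucocorticoid response element, in 0.475%, was found in the 27. A match is a description of letters only, and none says anything about binding.

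Among the 6 urea cycle genes, Ass1 alone was called. It encodes argininosuccinate synthase, which joins citrulline to aspartate. Its levels were 7.44, 7.40, 8.70 and 8.12 in the wild type arrays, 8.62, 10.09, 8.82 and 9.24 in the untreated mutants, and 8.13, 8.51, 8.20 and 9.60 in the zinc group. The spread within each group was wide. Wild type replicate 3 lay above the lowest untreated mutant and above 3 zinc arrays, and zinc replicate 4 lay above 3 untreated mutants. The difference of Atp7b-/- from wild type was 1.28 ± 0.38 (SE, n = 4 and 4; 2.43-fold, limma adjusted p = 0.027). This difference rests on 1 probe set, with a mean of 8.57 over the 12 arrays. That was the dimmest of the probe sets standing for the 34 genes. How well it reads Ass1 mRNA was not tested. Without wild type replicate 1 or 2, or Atp7b-/- replicate 2 or 4, the difference was 0.98 to 1.26 with limma adjusted p-values of 0.0613 to 0.0802, and a variance trend with robust shrinkage gave 0.0616. With zinc Ass1 lay between the other groups, 0.58 below untreated with a 95% interval of the difference from -1.41 to 0.24, and was not called against either.

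The other steps of the cycle did not pass the test in any comparison. Cps1, carbamoyl phosphate synthetase, the entry step, was within 13.95 to 14.17 in all 12 arrays. Its difference in Atp7b-/- against wild type was -0.02, with a 95% interval of -0.16 to 0.13. Otc, ornithine transcarbamylase, read 13.12 to 13.15 in the wild type arrays, 13.00 to 13.07 in the untreated mutants and 13.13 to 13.24 in the zinc group. The untreated arrays were the lowest 4, yet the difference from wild type was only -0.11 (adjusted p = 0.176) and that of zinc against untreated 0.16 (adjusted p = 0.134). The 2 dimmer probe sets of Otc gave -0.01 and 0.12 in Atp7b-/- against wild type. Asl, argininosuccinate lyase, was 12.05 to 12.08 in 3 untreated Atp7b-/- arrays but 11.52 in replicate 1, against 11.69 to 11.80 in wild type. Its difference from wild type was 0.18 (adjusted p = 0.362), and with zinc it was -0.40 from untreated (adjusted p = 0.11). Leaving out the 2 arrays with pancreatic markers and Atp7b-/- replicate 1 gave Asl a difference of 0.32 from wild type that passed the test (limma adjusted p = 0.0182). Without Atp7b-/- replicate 1 alone, its fall with zinc also passed. Nags, which makes the activator of Cps1, and Arg1, arginase, differed by 0.15 and 0.06 in Atp7b-/- against wild type, with 95% intervals of -0.08 to 0.37 and -0.12 to 0.25. The mean of 6 periportal hepatocyte markers, the zone in which the urea cycle is strongest, was 11.39 to 12.09 in wild type arrays, 11.67 to 11.88 in those of untreated Atp7b-/- and 11.46 to 12.12 with zinc. In Atp7b-/- against wild type 1 of these 6, Cyp2f2, was lower (-0.49, adjusted p = 0.00299) and 1, Cdh1, was higher (0.62, adjusted p = 0.00164). Of 6 pericentral markers, Rhbg and Slc13a3 were higher (0.52 and 1.13) and none was lower, and Slc13a3 fell by 1.07 with zinc. The pericentral list mean was 9.73 to 9.81 in wild type arrays, 9.83 to 9.94 in those of untreated Atp7b-/- and 9.75 to 9.86 with zinc, although the median difference of the 6 in Atp7b-/- was -0.14. The part of either zone list in the results was not tested.

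Of the transport and ammonia genes set beside the cycle, Slc25a13, the mitochondrial aspartate and glutamate carrier citrin, moved in the opposite direction in both comparisons. It fell by 0.40 on the log2 scale in Atp7b-/- against wild type (adjusted p = 0.00192) and was 0.38 higher with zinc than without (adjusted p = 0.00956), from means of 11.72 in wild type to 11.32 and 11.70. Both calls held in each of 24 alternative settings. Slc25a15, the ornithine carrier, was 0.34 higher in Atp7b-/- (adjusted p = 0.00998; 0.0512 over the mean of its probe sets), and Glud1, glutamate dehydrogenase, fell by 0.29 (adjusted p = 0.0271). That call of Glud1 was lost in 5 of the fits that left out 1 array (wild type replicate 2 or 3, Atp7b-/- replicate 1, 2 or 4), with adjusted p-values of 0.0527 to 0.0714. Glul, glutamine synthetase, was -0.67 from wild type (adjusted p = 0.0792), with untreated Atp7b-/- replicate 1 at 10.53, the other 3 at 11.89, 11.96 and 12.14, and wild type at 12.09 to 12.40.

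**Figure D3:**
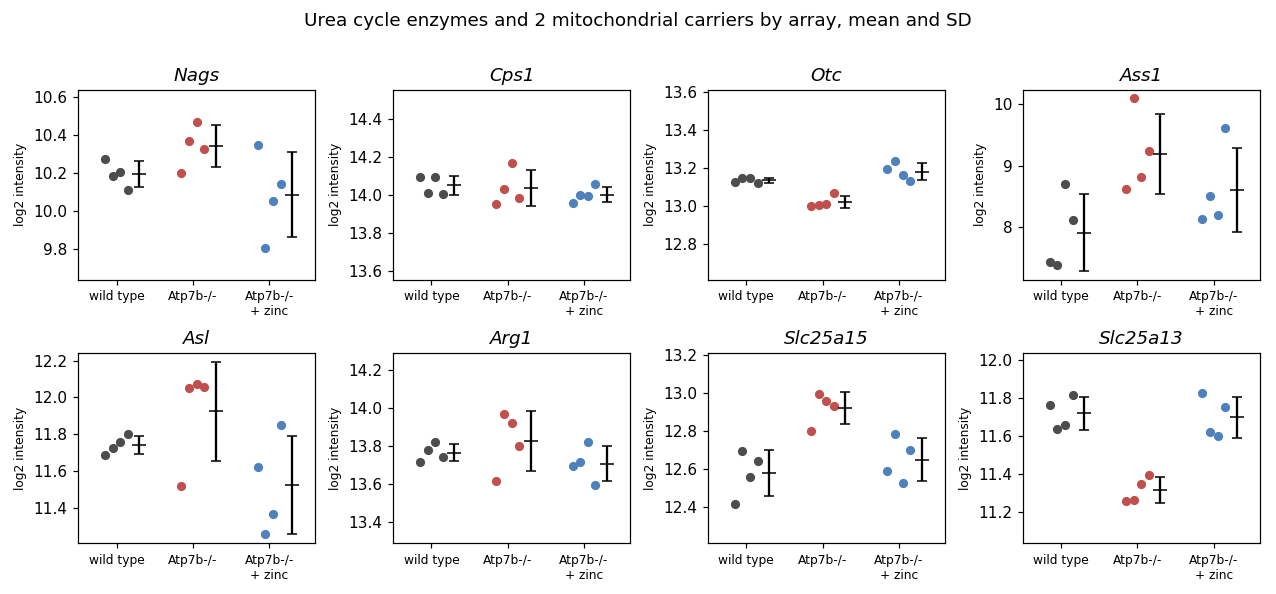
Log2 level of Nags, Cps1, Otc, Ass1, Asl and Arg1 with the carriers Slc25a15 and Slc25a13, for each array (points, replicates 1 to 4 from left to right), with the mean and SD of each group of 4 beside them. Ass1 spans 7.40 to 8.70 in wild type and 8.62 to 10.09 in untreated Atp7b-/-, while Cps1 stays within 13.95 to 14.17; Slc25a13 is lowest in untreated Atp7b-/-.

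Of the 4 measured transaminases of alanine and aspartate, 1 was higher in Atp7b-/- than in wild type and 3 were lower with zinc than without. Gpt, cytosolic alanine aminotransferase, read 11.37, 11.43, 11.53 and 11.35 in the wild type arrays, 11.92, 12.01, 11.96 and 12.12 in the untreated mutants, and 11.34, 11.55, 11.48 and 11.64 in the zinc group. All untreated mutant arrays lay above every other array. It was 0.58 ± 0.08 higher in Atp7b-/- than in wild type (SE, n = 4 and 4; 1.5-fold, limma adjusted p = 0.000181) and fell by 0.50 with zinc (adjusted p = 0.00264). Its dimmer probe set gave 0.24 and -0.33, and neither passed the test (adjusted p = 0.147 and 0.122).

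Gpt2, the mitochondrial alanine aminotransferase, read 11.69, 12.05, 11.90 and 11.66 in the wild type arrays, 11.32, 12.30, 11.86 and 12.22 in the untreated mutants, and 11.14, 11.13, 11.07 and 11.35 in the zinc group. The zinc arrays were the lowest apart from 1 overlap with untreated replicate 1. Its difference between Atp7b-/- and wild type was 0.10 (95% interval -0.28 to 0.48), or 0.30 without Atp7b-/- replicate 1 and -0.02 without replicate 2, and did not pass in any of these fits. With zinc it fell by 0.75 against untreated mutants (adjusted p = 0.0222) and by 0.65 against wild type (adjusted p = 0.0389). Each of its 4 probe sets was lower with zinc than without, by -0.57 to -0.94. The call against untreated was lost without Atp7b-/- replicate 2 or 4 or zinc replicate 1, 2 or 3 (adjusted p = 0.0537 to 0.0743), and without both arrays carrying pancreatic markers (-0.68, adjusted p = 0.16). The call against wild type was lost without wild type replicate 1, 2 or 3, Atp7b-/- replicate 3 or any 1 zinc array (adjusted p = 0.0511 to 0.106), and without both arrays with pancreatic markers (-0.58, adjusted p = 0.22).

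Got1, the cytosolic aspartate aminotransferase, read 11.73, 11.16, 11.40 and 10.95 in the wild type arrays, 11.98, 11.82, 11.91 and 11.70 in the untreated mutants, and 10.60, 10.99, 11.04 and 11.66 in the zinc group. The untreated mutant arrays were above all zinc arrays, narrowly so at zinc replicate 4. It fell by 0.78 with zinc (adjusted p = 0.0325) and was 0.54 ± 0.20 above wild type in untreated mutants, which did not pass the test (adjusted p = 0.0606). The zinc call was lost in 7 of 12 fits that left out 1 array (each Atp7b-/- replicate and zinc replicates 1, 2 and 3; adjusted p = 0.0584 to 0.0864) and without both arrays with pancreatic markers (-0.72, adjusted p = 0.188), as well as after quantile normalization. Got2, the mitochondrial form, was 0.18 above wild type in Atp7b-/- and -0.13 with zinc against untreated, and neither passed; its dimmer probe sets gave -0.10 to -0.16 in Atp7b-/- against wild type.

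Tyrosine is broken down by Tat, Hpd, Hgd and Fah in turn, and the last 2 were called higher in Atp7b-/-. Hgd, homogentisate dioxygenase, read 12.95, 12.94, 12.99 and 12.94 in the wild type arrays, 13.29, 13.27, 13.37 and 13.32 in the untreated mutants, and 13.06, 13.17, 13.03 and 13.10 in the zinc group. The 3 groups did not overlap. The difference from wild type was 0.36 ± 0.06 (SE, n = 4 and 4; adjusted p = 0.00105), and the zinc difference from untreated, -0.22, missed the threshold (adjusted p = 0.053). The other probe set of Hgd, dimmer, gave -0.13 in Atp7b-/- against wild type, and the mean of both 0.11, and neither passed the test. Fah, fumarylacetoacetate hydrolase, read 12.72, 12.62, 12.58 and 12.73 in the wild type arrays, 12.94, 12.89, 13.17 and 13.06 in the untreated mutants, and 12.84, 12.80, 12.71 and 12.90 in the zinc group. It was 0.35 ± 0.08 higher in Atp7b-/- (adjusted p = 0.00575), and the zinc difference of -0.20 did not pass (adjusted p = 0.147).

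Tat, tyrosine aminotransferase, a classical glucocorticoid and glucagon target, read 12.28, 12.29, 12.90 and 12.74 in the wild type arrays, 12.90, 12.91, 13.07 and 12.78 in the untreated mutants, and 11.88, 12.30, 11.90 and 12.72 in the zinc group. The untreated mutant arrays were above every zinc array but overlapped wild type. Tat fell by 0.72 with zinc (adjusted p = 0.0339) and was 0.36 from wild type in untreated mutants without passing (adjusted p = 0.165). The zinc call was lost when any Atp7b-/- array or zinc replicate 1, 2 or 3 was left out (adjusted p = 0.0582 to 0.0965), and without both arrays with pancreatic markers (-0.62, adjusted p = 0.194). Hpd, the dioxygenase between Tat and Hgd, was within 13.79 to 14.02 in all arrays and passed in no comparison. Of the 3 related genes of phenylalanine and tyrosine, Qdpr and Pcbd1, which recycle the cofactor of phenylalanine hydroxylase, were higher in Atp7b-/-: Qdpr by 0.34 (adjusted p = 0.00322) and Pcbd1 by 0.19 (adjusted p = 0.0381). The Pcbd1 call was lost in 8 of the 12 fits without 1 array (each wild type array, Atp7b-/- replicates 1, 3 and 4, and zinc replicate 2; adjusted p = 0.0514 to 0.095).

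Of the 4 measured tryptophan genes among the 37, Kmo was called higher in Atp7b-/-, as were 2 of 5 related tryptophan genes. Kmo, kynurenine monooxygenase, read 10.94, 11.21, 11.11 and 11.23 in the wild type arrays, 11.47, 11.76, 11.79 and 11.76 in the untreated mutants, and 11.23, 11.29, 11.27 and 11.17 in the zinc group. All untreated mutant arrays, replicate 1 included, lay above every other array. It was 0.57 ± 0.09 higher in Atp7b-/- (SE, n = 4 and 4; 1.49-fold, adjusted p = 0.000493) and fell by 0.46 with zinc (adjusted p = 0.00929), and both calls held in all 24 alternatives. Tdo2, the dioxygenase that opens the tryptophan ring, differed by 0.00 between Atp7b-/- and wild type (95% interval -0.15 to 0.14). Kynu, kynureninase, was -0.18 (adjusted p = 0.12) and Haao, the next dioxygenase, 0.09 (adjusted p = 0.508) in the same comparison. After quantile normalization Kynu passed as lower, by -0.26. Qprt, which makes nicotinate mononucleotide from the end product of this route, and Kyat3, a kynurenine aminotransferase, were higher in Atp7b-/- by 0.34 and 0.49 (adjusted p = 0.0119 and 0.0236). Kyat3 did not pass without wild type replicate 1 or 2 or Atp7b-/- replicate 3 or 4 (adjusted p = 0.0577 to 0.0739).

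Agxt2, the mitochondrial aminotransferase of glyoxylate and dimethylarginine, stayed above wild type in both mutant groups. It read 10.40, 10.94, 10.66 and 10.76 in the wild type arrays, 11.44, 11.55, 11.60 and 11.73 in the untreated mutants, and 11.21, 11.45, 11.12 and 11.32 in the zinc group. No array of either mutant group reached down to the highest wild type array. It was 0.89 ± 0.11 higher in untreated Atp7b-/- (1.85-fold, n = 4 and 4, limma adjusted p = 8.24e-05) and 0.58 ± 0.11 higher with zinc (1.5-fold, adjusted p = 0.00622), and both calls held in all 24 alternatives. The zinc difference from untreated, -0.31, did not pass (adjusted p = 0.13). Agxt, the serine and glyoxylate aminotransferase of peroxisomes, was 0.19 above wild type in Atp7b-/- without passing (adjusted p = 0.0856), with replicate 1 of the mutant at 12.16 and the other 3 at 11.91 to 11.93.

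Cth, cystathionine gamma-lyase, which releases cysteine and can make hydrogen sulfide, had the smallest adjusted p of the 34 genes in Atp7b-/- against wild type. It read 12.64, 12.63, 12.78 and 12.89 in the wild type arrays, 13.38, 13.65, 13.55 and 13.58 in the untreated mutants, and 13.02, 12.95, 12.71 and 13.11 in the zinc group. The untreated mutants were separate from both other groups, which overlapped each other. Cth was 0.80 ± 0.10 higher in Atp7b-/- (SE, n = 4 and 4; 1.75-fold, adjusted p = 5.84e-05) and fell by 0.59 with zinc (adjusted p = 0.0031), in all 24 alternatives. With zinc it was 0.21 from wild type, with a 95% interval of 0.00 to 0.42 and an adjusted p of 0.235. Among related sulfur genes, Cdo1, which oxidises cysteine, fell by 0.43 in Atp7b-/- (adjusted p = 0.00874) and Ethe1, the mitochondrial persulfide dioxygenase, was 0.59 higher (adjusted p = 0.0087). Mpst, a sulfurtransferase, fell by 0.50 (adjusted p = 0.0473), a call lost in 9 of the 12 fits without 1 array (all but wild type replicate 2 and Atp7b-/- replicates 2 and 3; adjusted p = 0.0533 to 0.119).

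**Figure D4:**
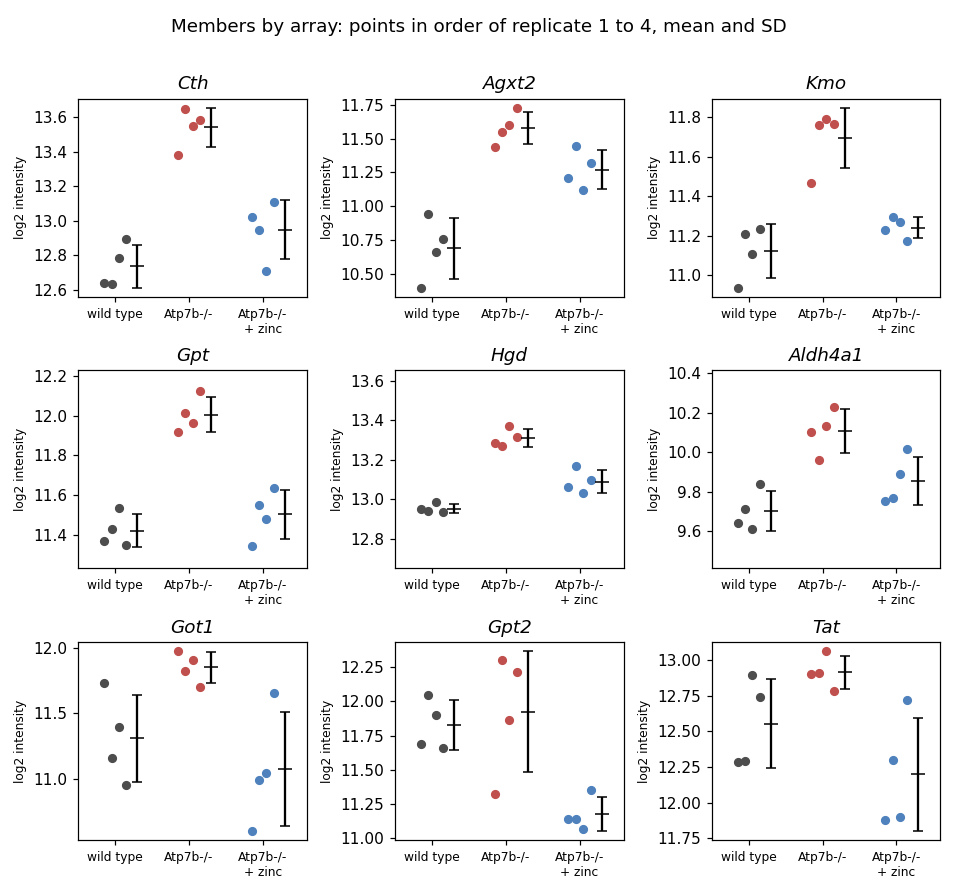
Log2 level of Cth, Agxt2, Kmo, Gpt, Hgd, Aldh4a1, Got1, Gpt2 and Tat for each array (points, replicates 1 to 4 from left to right), with the mean and SD of each group of 4 beside them. In untreated Atp7b-/-, Cth (13.38 to 13.65), Kmo (11.47 to 11.79) and Gpt (11.92 to 12.12) lie above every wild type and zinc array, whereas Gpt2 is lowest with zinc (11.07 to 11.35).

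Lysine and proline each had 1 of 2 genes higher. Aass, the first enzyme of lysine breakdown, read 11.43, 11.81, 11.66 and 11.86 in the wild type arrays, 12.11, 12.19, 11.92 and 12.19 in the untreated mutants, and 11.85, 11.86, 11.83 and 11.89 in the zinc group. It was 0.41 ± 0.10 higher in Atp7b-/- (adjusted p = 0.0081); the zinc difference from untreated was -0.24 (adjusted p = 0.158). Gcdh, glutaryl-CoA dehydrogenase further along, was 0.22 from wild type (adjusted p = 0.223). Aldh4a1, which turns the proline product into glutamate, read 9.64, 9.71, 9.61 and 9.84 in the wild type arrays, 10.10, 9.96, 10.13 and 10.23 in the untreated mutants, and 9.75, 9.77, 9.89 and 10.01 in the zinc group. It was 0.40 ± 0.09 higher in Atp7b-/- (adjusted p = 0.00425) and -0.25 with zinc (adjusted p = 0.108). Prodh, the preceding step, differed by 0.04 (95% interval -0.22 to 0.30). Aass and Aldh4a1 held their call against wild type in all 24 alternatives, as Fah did.

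Of 5 branched-chain genes, Dbt and Ivd were higher in Atp7b-/-, and with zinc Bckdhb was higher than in wild type. Dbt, the transacylase core of the branched-chain ketoacid dehydrogenase, was 0.39 ± 0.12 higher (adjusted p = 0.0341) over arrays of 9.91 to 10.03 in wild type and 10.00 to 10.51 in Atp7b-/-. The lowest of those, 10.00 in Atp7b-/- replicate 1, overlapped wild type. Leaving out wild type replicate 1, 3 or 4 or Atp7b-/- replicate 2, 3 or 4 moved its adjusted p to 0.0502 to 0.0905. Ivd, isovaleryl-CoA dehydrogenase, was 0.31 ± 0.10 higher (adjusted p = 0.0289), and leaving out wild type replicate 2, 3 or 4 or Atp7b-/- replicate 1 or 4 moved it to 0.0545 to 0.0898. The second Ivd probe set gave 0.44 (adjusted p = 0.00398 over all probe sets). Bckdhb, the beta subunit of the dehydrogenase, read 11.56, 11.71, 11.68 and 12.06 in the wild type arrays, 11.81, 12.06, 11.98 and 12.29 in the untreated mutants, and 12.26, 12.20, 12.16 and 12.33 in the zinc group. It was 0.48 ± 0.12 higher with zinc than in wild type (adjusted p = 0.0218) and 0.28 in untreated mutants, which did not pass (adjusted p = 0.0942). The zinc call was lost without wild type replicate 1, 2 or 3 or zinc replicate 4 (adjusted p = 0.0559 to 0.0688) and without both arrays with pancreatic markers (0.54, adjusted p = 0.0808). Bckdha and Mccc1 passed in no comparison, with differences of 0.14 and 0.12 in Atp7b-/- against wild type. Of 14 related branched-chain genes outside the 37, 1 was called in Atp7b-/- against wild type, with a median difference of 0.02: Hibch, a valine enzyme, was 0.59 higher (adjusted p = 0.000158).

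Histidine is broken down by Hal, Uroc1, Amdhd1 and Ftcd in order, and the first and last were called higher. Hal, histidine ammonia-lyase, was 0.43 ± 0.14 higher in Atp7b-/- (adjusted p = 0.034), with arrays of 11.26 to 11.83 in wild type and 11.64 to 12.11 in the mutant, which overlapped. Leaving out wild type replicate 1, 2 or 3 or Atp7b-/- replicate 3 or 4 gave Hal adjusted p-values of 0.0685 to 0.104, and a fit of the compared groups alone gave 0.0541. Ftcd, which moves the last carbon group to folate, was 0.28 ± 0.10 higher (adjusted p = 0.0496), from 12.43 to 12.56 in wild type to 12.69 to 12.89. Its call was lost in 10 of 12 fits without 1 array (each wild type and Atp7b-/- array and zinc replicates 1 and 2; adjusted p = 0.054 to 0.116). With zinc, Ftcd differed from untreated by -0.35 (adjusted p = 0.0502), and this passed without the arrays with pancreatic markers. Uroc1 and Amdhd1 were 0.20 and 0.07 from wild type, with 95% intervals of 0.02 to 0.39 and -0.34 to 0.47.

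Zinc against untreated Atp7b-/- called 6 of the 34 genes lower and none higher, 17.6% of the list, where 4.84% of all genes were called lower and 1.7% higher, 6.54% in all. In the fit of the genes above the median level, 10.3% were lower and 3.53% higher, and it called 8 of the 34 lower and 0 higher. Of the genes called in the fit of all genes, 26% were higher. Quantile normalization made this 40%, and then also called 6 of the 34 lower, with Hgd in and Got1 out. The median difference over the 34 was -0.18, against 0.01 over all genes and -0.06 over those above the median level. The arrays did not overlap for 8 lower genes and 2 higher ones (9.39% and 5.93% of all genes, 15.3% in all). The comparison shares the untreated arrays with that of Atp7b-/- against wild type, so a chance rise in those arrays would appear as opposite differences in both. Without both arrays with pancreatic markers, 4 genes were lower: Gpt, Kmo, Ftcd and Cth. Leaving out Atp7b-/- replicate 2 or 4 or zinc replicate 1 or 2 left 3 of the 34 lower. With zinc, 2 of 6 stellate cell markers (Reln, 0.61, and Col3a1, 0.74) and 1 of 6 endothelial markers (Clec4g, 0.43) were higher than in untreated mutants. The stellate list mean was 7.83 to 8.14 in wild type arrays and 8.02 to 8.33 with zinc; in untreated Atp7b-/- it had a median of 7.93 and stayed below every zinc array. Its part in the results was not tested.

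Against wild type, the zinc-treated livers had 2 of the 34 genes higher and 1 lower, 5.88% and 2.94%, close to the 4.89% and 2.73% of all genes (7.62% in all) and under the 9.82% and 5.76% of the brighter genes. The median difference over the 34 was 0.08. Arrays were fully separated for 4 higher genes and 1 lower one, where 7.88% and 6.45% of all genes (14.3% in all) were. Without both arrays with pancreatic markers, 1 gene, Agxt2, remained higher and none was lower. The count of higher genes also went to 1 without wild type replicate 1, 2 or 3 or zinc replicate 4.

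Of 62 measured genes of the same pathways outside the 37, 11 were higher and 9 lower in Atp7b-/- against wild type, with a median difference of 0.11. These are 17.7% and 14.5%, near the 14.3% and 10.3% of all genes and the 25.4% and 13.0% of the brighter ones. Beside Hibch, Slc25a13, Qdpr and others given above, the smallest adjusted p belonged to Srr, serine racemase (0.65 higher, adjusted p = 0.000182), Slc43a1, a transporter of large neutral amino acids (0.71 higher, adjusted p = 0.000659), and Slc38a4, a sodium-coupled transporter of neutral amino acids (fell by 0.55, adjusted p = 0.00115). Shmt2, the mitochondrial serine hydroxymethyltransferase, was 0.53 higher (adjusted p = 0.00328). Cebpb, a transcription factor of the liver's hormone and acute-phase responses, read 10.94, 10.91, 10.76 and 11.38 in the wild type arrays, 12.02, 12.05, 12.04 and 12.06 in the untreated mutants, and 10.67, 11.94, 11.36 and 11.64 in the zinc group. The untreated mutants were closely alike and above every other array, whereas the zinc arrays were scattered. Cebpb was 1.05 ± 0.21 higher in Atp7b-/- than in wild type (SE, n = 4 and 4; adjusted p = 0.00285). With zinc Cebpb was -0.64 from untreated, which did not pass (adjusted p = 0.0909). Of the 7 regulators, Cebpb was the 1 called higher in Atp7b-/- against wild type, and 2 were lower. These were Gcgr (means of 11.07 in wild type and 10.84 in untreated mutants) and Hnf4a (12.82 and 12.58). Dmgdh (11.72 and 11.32) and Slc1a2 (8.82 and 8.23) were also called lower. Hnf4a and Slc1a2 lost their calls in 3 and 6 of the 12 fits without 1 array. Hnf4a also lost it in 4 other alternatives, among them other choices of probe set. In these its difference was -0.22 to -0.08, with limma adjusted p-values of 0.0506 to 0.807. Slc25a13 was the only one of the 62 called with zinc against untreated, 1.61% where 6.54% of all genes were called. In zinc-treated mutants against wild type, Srr, Slc43a1, Hibch and Shmt2 were higher and Slc38a4 was lower, 6.45% and 1.61% beside 4.89% and 2.73% of all genes. Without both arrays with pancreatic markers, the calls of Slc43a1, Hibch and Slc38a4 were lost (adjusted p = 0.0534 to 0.106). Shmt2 lost its call in 6 of the 12 fits without 1 array (wild type replicates 1, 2 and 3 and zinc replicates 1, 2 and 4; adjusted p = 0.0586 to 0.0923).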

How the data were processed

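Total RNA from 12 liver samples was hybridised to Affymetrix arrays, and the authors deposited 1 table of log2 values, normalized between arrays by a method not given in the sources used here. The values ran from 2.22 to 15.24, array medians from 5.63 to 5.71, and none was missing. They were used without further scaling.

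Of 45101 probe sets, 64 were controls, 34945 listed exactly 1 gene symbol, 932 several and 9160 none. The first kind gave 18193 genes, with the brightest probe set (by mean over 12 arrays) standing for each.

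Groups were taken from the sample titles. limma 3.58.1 in R 4.3.3 (lmFit, contrasts.fit, eBayes) fitted 1 model of 3 group means, with Benjamini-Hochberg adjustment over all genes within each comparison, and a call at 0.05. The steps were tested on simulated data in which genes and arrays varied independently. Such data do not copy arrays that stand apart as a whole, so the simulation checks the steps only. The number of arrays limits the precision.

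All 34 measured genes are named, with the related genes called in a comparison and those beside a member of the same step. The members and lists were chosen with earlier results of these data known. Replicate numbers carry no stated pairing, so no block was used. There were 24 alternatives: normalization, probe set choice, a filter on dim genes, variance model, array weights, groups in the fit, replicate block and each array left out. The last 2, without arrays that stood apart, were chosen after seeing the data. Promoters came from RefSeq (GRCm38.p6).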

Additional observations from a re-analysis of the deposited data

Results flagged for a closer look

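Within each group of 4 arrays, the levels of 54 genes (the 34 members and the related genes called in a comparison) were examined for an array far from the other 3. Of 162 such groups, 10 were marked, where chance marks about 1 in 20; 5 of the 10 were untreated Atp7b-/- replicate 1, 2 others lay in the same group, 3 in wild type and 0 with zinc. In untreated Atp7b-/- replicate 1, Asl was 11.522 (the other 3 arrays 12.05 to 12.08), Kmo 11.4673 (11.76 to 11.79), Dbt 10.0 (10.43 to 10.51) and Cdo1 13.1585 (13.51 to 13.55), all lower, while Agxt was higher at 12.1627 (11.91 to 11.93). In untreated Atp7b-/- replicate 4, Otc was 13.0702 (13.00 to 13.01) and Slc43a1 7.6782 (7.46 to 7.50). In wild type, Ivd was 10.421 in replicate 1 (10.32 to 10.33), and Qdpr was 13.3478 (13.49 to 13.52) and Mpst 9.6097 (9.93 to 9.98) in replicate 2.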

How the results depend on the processing

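Of the 13 genes higher in Atp7b-/- than in wild type, 6 were called in each of 24 alternatives (Fah, Kmo, Agxt2, Aass, Aldh4a1 and Cth); of the 6 lower with zinc than without, 2 were (Kmo and Cth), and of the 3 called in zinc-treated mutants against wild type, 1 was (Agxt2). With each array left out in turn, the count for Atp7b-/- against wild type was 8 to 14 higher and 0 to 0 lower, that for zinc against untreated 3 to 6 lower, and that for zinc-treated against wild type 1 to 3 higher and 0 to 1 lower. Quantile normalization gave 10 higher and 1 lower (Kynu) in Atp7b-/- against wild type, and median centring 15 higher. Without zinc-treated replicates 2 and 3, chosen after seeing the data, zinc-treated mutants against wild type had 1 higher and 0 lower; with Atp7b-/- replicate 1 also left out, 2 higher and 0 lower. With the first set left out, 4 genes were lower with zinc than without, with the second 5, and array weights gave 9. Hgd in Atp7b-/- against wild type was -0.1308 by the probe set with the largest variance and 0.11 by the mean of all its probe sets; the cause was not tested. Same-numbered arrays deviated together with correlations from -0.13 to 0.24, and 6 of 12 arrays matched best with their own number. These values do not settle whether the numbers are pairs. They were not taken as pairs because no pairing is stated. With the replicate block, 13 and 0, 0 and 5, and 2 and 1 genes were higher and lower in the 3 comparisons, and Got1 lost its call with zinc. Over all genes, zinc against untreated called 1190 genes, against 1861 with array weights, 614 without zinc-treated replicates 2 and 3, 598 with Atp7b-/- replicate 1 also left out and 689 without Atp7b-/- replicate 4. Zinc-treated against wild type called 1386, against 699 and 881 in those reduced sets of arrays.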
